A study of Homo sapiens with 6 samples.

Results

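Metallothioneins are small, cysteine-rich proteins that bind zinc, copper and cadmium, and the kidney tubule is one of the tissues known to hold them. Here 9 genes of this system were followed by gene name among 41497 named entries, and each was read from its entry on the primary chromosomes. They were the metallothioneins MT1A, MT1E, MT1F, MT1G, MT1M, MT1X and MT2A, MTF1, which encodes the zinc-sensing transcription factor of the family, and SLC30A1, which encodes the zinc exporter ZnT1 of the plasma membrane. Free zinc binds MTF1, which then binds metal response elements (MREs) in the promoters of metallothionein genes and of SLC30A1. Metallothioneins therefore buffer zinc inside the cell, and SLC30A1 removes it. Metallothionein genes are also known to respond to glucocorticoids and to oxidative stress.

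RNA-seq was performed on HK2 cells, an immortalised line of human kidney proximal tubular epithelial cells labelled WT, to measure the transcriptional response to TGF-β1, a profibrotic cytokine. The 3 control libraries came from untreated cells and the 3 TGF-β1 libraries from cells treated for 24 h. The labels give a growth medium with serum for both groups, the methods of the study give a serum-free medium and a dose for TGF-β treatment of cells in general, and neither states whether the untreated cells were also without serum. No label says whether the 3 libraries of a group came from separate cultures, so the p-values measure only the spread between these libraries. All libraries are of 1 cell line.

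Total counts were 21.9 to 26.9 megacounts (M) per library, with the most in TGF-β1 replicate 1. Values are CPM, the reads of a gene divided by the total of its library in megacounts after TMM scaling, as mean ± SD (n = 3), and log2 fold changes are TGF-β1 over control ± SE. A gene was called when its adjusted p in the edgeR quasi-likelihood test was under 0.05, and 14860 named entries were tested. Of these, 44.3% were called, 22.2% as higher and 22.1% as lower, with a median log2 fold change of 0.01. Among markers, KRT8 and KRT18 of simple epithelia were abundant, whereas EPCAM had 16.4 ± 1.17 CPM in control and CDH1 had 9 reads over all 6 libraries. Of 7 proximal tubule markers, GGT1 had 75.6 ± 7.22 CPM in control, the others stayed under 3 CPM in every library, and LRP2 had 0 reads, so most defining markers of the proximal tubule were absent or near 0. Of 8 markers of endothelium, leukocytes, podocytes, loop of Henle and fibroblasts, 7 were under the count filter, and LUM was at 61.7 ± 5.12 CPM in control and 51 ± 1.05 CPM after TGF-β1. With TGF-β1, KRT8 and KRT18 were higher by 0.65 and 0.58, and EPCAM, GGT1 and LUM changed by -1.25, -0.58 and -0.28 on the log2 scale. Of the proximal tubule markers with few reads, AQP1 and CUBN were called higher, by 2.1 ± 0.39 and 0.82 ± 0.27. The part of these marker changes in the values of the members was not tested.

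The promoters of 4 of the 9 members could be matched in a RefSeq table on GRCh38.p14, namely MT2A, MT1X, SLC30A1 and MTF1. The bases before the start of transcription are shown for 3 of them, since the MREs of metallothionein genes are known to lie there. MT1H is also shown, from 3 metallothioneins with no reads here whose windows were matched. Each sequence is the 250 bases before the start, written 5′ to 3′ on the strand of the gene. Capitals mark each match to the MRE core, searched as TGCACNC or TGCGCNC on both strands. No matches overlapped each other.
MT2A: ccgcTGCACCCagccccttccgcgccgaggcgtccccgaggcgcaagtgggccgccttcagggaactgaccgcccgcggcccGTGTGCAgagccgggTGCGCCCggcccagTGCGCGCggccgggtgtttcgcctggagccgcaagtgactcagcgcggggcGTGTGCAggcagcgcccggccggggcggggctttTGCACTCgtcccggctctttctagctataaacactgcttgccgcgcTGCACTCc
MT1X: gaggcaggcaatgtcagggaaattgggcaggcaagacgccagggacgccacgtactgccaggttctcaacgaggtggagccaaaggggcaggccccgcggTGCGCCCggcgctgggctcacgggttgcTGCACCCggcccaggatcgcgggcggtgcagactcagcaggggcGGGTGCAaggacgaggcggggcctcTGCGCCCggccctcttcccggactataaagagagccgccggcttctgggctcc
SLC30A1: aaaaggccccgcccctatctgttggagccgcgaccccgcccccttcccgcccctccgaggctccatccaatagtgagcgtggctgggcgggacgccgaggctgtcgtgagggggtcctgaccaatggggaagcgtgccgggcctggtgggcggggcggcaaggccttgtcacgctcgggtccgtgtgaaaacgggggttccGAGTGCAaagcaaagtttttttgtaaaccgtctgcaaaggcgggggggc
MT1H: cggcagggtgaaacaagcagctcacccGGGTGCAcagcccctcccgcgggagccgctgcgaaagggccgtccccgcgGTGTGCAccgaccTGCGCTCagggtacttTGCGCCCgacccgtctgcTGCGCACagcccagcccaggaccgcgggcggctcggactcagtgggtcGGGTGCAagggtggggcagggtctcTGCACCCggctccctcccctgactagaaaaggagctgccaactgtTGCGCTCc

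MT2A, at chr16:56608334-56608583 on the plus strand, held 7 MRE matches, 5 on the strand of the gene and 2 on the other. MT1X, at chr16:56682220-56682469 on the plus strand, held 4 matches. SLC30A1, at chr1:211579162-211579411 on the minus strand, held 1 match, and the MTF1 window held 0. MT1H, at chr16:56669564-56669813 on the plus strand, held 8. The windows of MT1B and MT4, also without reads here, held 3 each. Over all 35116 promoters of the table, 24.8% of windows of this length held at least 1 match, 0.37% held at least 4, and 11 promoters held at least 7. The MT2A and MT1X windows were therefore among the densest in matches, and so was that of MT1H. A match is a description of the sequence and not a measured binding site.

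MT2A was the most abundant metallothionein, and MT1X had the largest rise. MT2A is at chr16:56608584-56609497 on GRCh38 and encodes the main metallothionein of many human tissues. Control libraries held 9400, 10678 and 8560 reads of MT2A, against 18921, 16556 and 13613 in the TGF-β1 libraries. On the CPM scale the controls lay at 417, 436 and 365, and the treated cells at 727, 685 and 650.0. Every TGF-β1 library was above every control library. The mean was 406 ± 37 CPM in control and 687 ± 38.4 CPM with TGF-β1, so MT2A rose 1.69-fold, or by 0.76 ± 0.07 on the log2 scale (edgeR adjusted p = 1.14e-05). By TPM, which scale the reads by transcript length, MT2A ranked between 20 and 25 among all entries in the control libraries and between 8 and 12 after TGF-β1.

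MT1X lies at the other end of the expressed cluster, at chr16:56682470-56684196. Its reads numbered 443, 485 and 411 in control libraries and 1238, 1020 and 823 in TGF-β1 libraries, or 19.6, 19.8 and 17.5 CPM against 47.5, 42.2 and 39.3 CPM. The groups did not overlap. The log2 fold change was 1.18 ± 0.08 (edgeR adjusted p = 1.02e-06), a fold of 2.27. MT1X was the only member called higher by 2-fold or more, as were 3.68% of all entries tested.

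**Figure D1:**
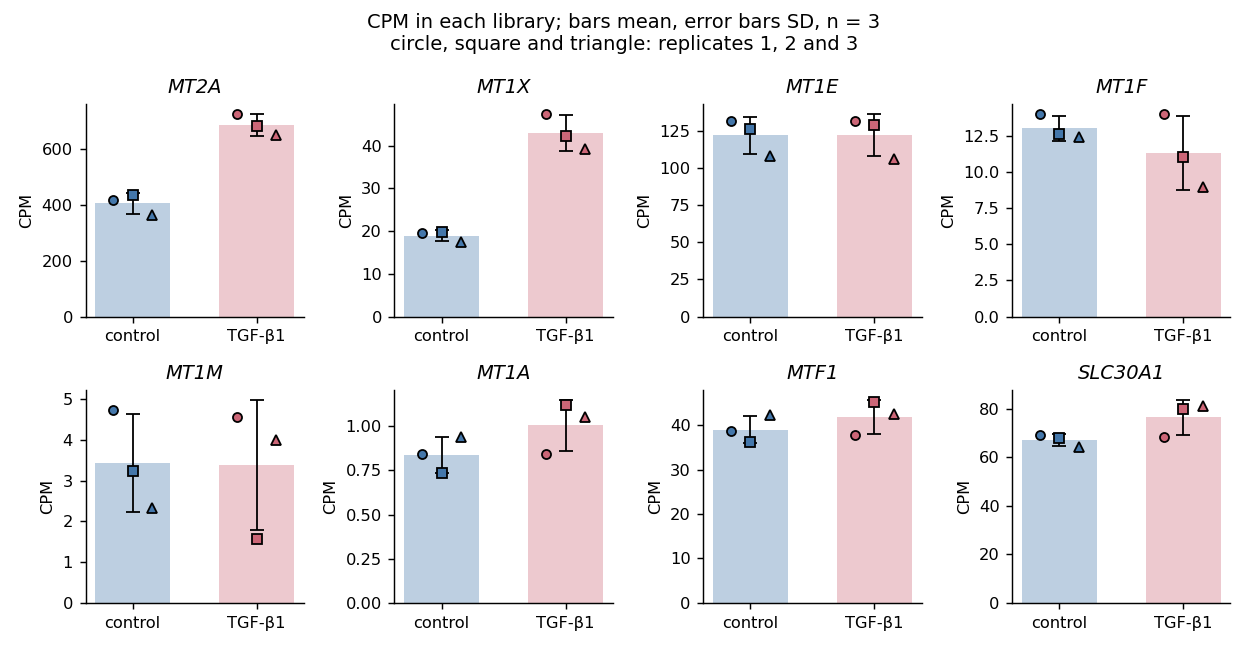
CPM of the 8 members tested, with 1 panel per gene and its own vertical axis from 0. Symbols are libraries, bars are means and error bars are SD (n = 3), and only MT2A and MT1X had every TGF-β1 library above every control library.

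The other MT1 genes stood apart from MT1X. MT1E, the next most abundant member at chr16:56625781-56627112, had 132, 126 and 108 CPM in control and 132, 129 and 106 CPM after TGF-β1. The libraries of both groups covered the same range, and replicate 3 was the lowest in each. Its log2 fold change was 0.01 ± 0.10, with a 95% interval from -0.22 to 0.24 (edgeR adjusted p = 0.964), which does not reach the rise of MT2A. The sign for MT1E was not stable, since it was -0.10 when counts were scaled by total counts only.

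MT1F, at chr16:56657959-56659303, had 14, 12.6 and 12.4 CPM in control and 14, 11 and 8.93 CPM after TGF-β1. Replicate 1 of TGF-β1 was as high as the highest control, and the other two TGF-β1 libraries were below all controls. The log2 fold change was -0.19 ± 0.15 (edgeR adjusted p = 0.313). Without TGF-β1 replicate 1 it was -0.39 and was called lower (edgeR adjusted p = 0.0079).

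MT1M and MT1A had few reads, and neither was called. MT1M, at chr16:56632659-56633981, gave 107, 79 and 55 reads in control libraries and 119, 38 and 84 in TGF-β1 libraries. The libraries of a group differed from each other more than the groups did, and the log2 fold change of -0.02 ± 0.46 had a 95% interval from -1.15 to 1.11. MT1A, at chr16:56638666-56640087, gave 19, 18 and 22 reads in control libraries and 22, 27 and 22 in TGF-β1 libraries, with a log2 fold change of 0.26 ± 0.24 (edgeR adjusted p = 0.426). MT1G, at chr16:56666730-56668065 on the minus strand, had 3 reads over all 6 libraries and was under the count filter. No fold is given for MT1G.

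Within the family, 5 other metallothioneins were listed, and MT1B, MT1H, MT1HL1, MT3 and MT4 had 0 reads among 142 M. A count of 0 allows up to 3 reads, or 0.0212 CPM over the libraries together, which covers counting error only. MT3 is known mainly from brain and MT4 from squamous epithelia. Of these, MT1H, MT1B and MT4 had their windows matched, with 8, 3 and 3 MRE matches. MT2A with 7 was among the most abundant transcripts, and MT1X had 4. The part of MRE matches in these levels was not tested.

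**Figure D2:**
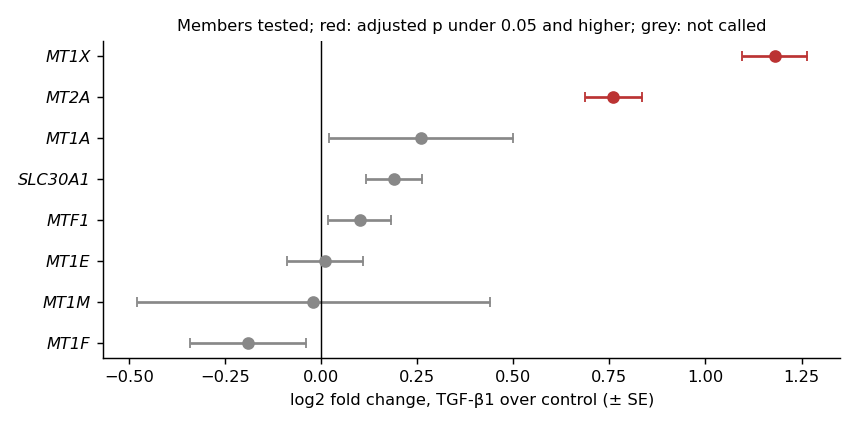
Log2 fold change of TGF-β1 over control for the 8 members tested, with SE as error bars. MT1X at 1.18 and MT2A at 0.76 were called higher, and the other 6 lay between -0.19 and 0.26 and were not called.

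Of the 8 members tested, 2 were called higher and 0 lower by edgeR, against 22.2% and 22.1% of all entries. The same 2 members, and no others, had groups that did not overlap, against 27.9% of all entries for TGF-β1 above control. At an unadjusted p under 0.05, SLC30A1 was also higher, and no member was lower. The share of all entries at that looser threshold is not given, so it is not a result about SLC30A1. The median log2 fold change of the members was 0.14, beside 0.01 over all entries tested. The members were thus not uniformly shifted, and the counts rest on MT2A and MT1X.

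Metallothionein genes are close copies of each other, so reads may be split among them by the counting. The open reading frames of 6 of the 7 genes in GENCODE release 29 had the same length of 186 bases and were identical in 88.7% to 94.6% of positions over the 15 pairs. MT1A and MT1E were the closest pair at 94.6%, and MT1X and MT2A shared 92.5%. Stretches of 50 bases found in another metallothionein made up 1.58% of those of MT2A, 3.64% of MT1X, 7.1% of MT1E and 16.47% of MT1G, and no stretch of 100 bases was shared by any member. How the counting treated reads that match several members is not given, and the reads were therefore also summed. A sum covers reads given to the wrong member, but not reads that the counting may have left out.

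The 7 metallothioneins together had 587, 599 and 506 CPM in control and 926, 869.8 and 809 CPM after TGF-β1. The groups did not overlap. The mean of the sum was 564 ± 50.7 CPM in control and 868 ± 58.6 CPM with TGF-β1, which was 1.54-fold higher, or 0.62 ± 0.08 on the log2 scale. The 6 MT1 genes had 158 ± 15.4 CPM in control and 181 ± 20.5 CPM after TGF-β1, with libraries that overlapped. The 5 MT1 genes other than MT1X had 139 ± 14.2 and 138 ± 16.6 CPM, a ratio of 0.993. The rise of the sum was thus held by MT2A and MT1X.

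The make-up of the metallothionein reads differed between the groups. MT2A made up 70.9%, 72.9% and 72.1% of them in control and 78.5%, 78.7% and 80.4% after TGF-β1. MT1X went from 3.37% ± 0.08 to 4.95% ± 0.16 (SD, n = 3). MT1E went from 21.6% ± 0.72 to 14.1% ± 0.92 while its own level was about the same, and MT1F from 2.31% ± 0.18 to 1.29% ± 0.21. For these 4 genes the groups did not overlap. Shares of a total are tied to each other, so a larger share of MT2A lowers the rest.

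**Figure D3:**
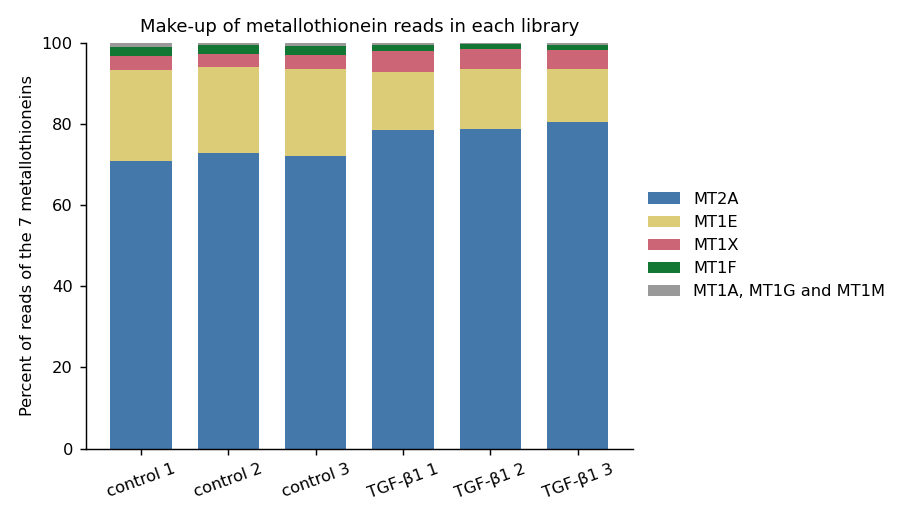
Percent of the reads of the 7 member metallothioneins taken by each gene, with 1 stacked bar per library and each bar summing to 100%. MT2A took 70.9% to 72.9% in the control libraries and 78.5% to 80.4% in the TGF-β1 libraries, and MT1E took the next largest share.

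Ratios within a library do not depend on scaling between libraries. MT2A had 3.17, 3.46 and 3.38 reads per read of MT1E in control and 5.5, 5.3 and 6.16 after TGF-β1. MT1X had 0.156 ± 0.007 reads per read of MT1E in control and 0.353 ± 0.02 after TGF-β1. MT1X also gained on MT2A, from 0.0469 ± 0.0013 to 0.0625 ± 0.0026 reads per read. Each of the 3 ratios was higher in all 3 TGF-β1 libraries than in any control library. The exact permutation test (two-sided) gave p = 0.1 for each, the smallest that 3 libraries against 3 allow. The ratios restate the changes of MT2A, MT1X and MT1E given above, and the last follows from the others, so they are not separate support.

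Levels of different genes can be compared in TPM, which divide by length. In control the order was MT2A at 3366 ± 266, MT1E at 543 ± 46.2, MT1X at 156 ± 8.28, MT1F at 92.5 ± 4.6, SLC30A1 at 37.9 ± 0.73, MT1M at 28.6 ± 9.61, MTF1 at 14.6 ± 1.37 and MT1A at 7.05 ± 0.93 TPM. The libraries of SLC30A1 and MT1M overlapped, and those of the other neighbours in this order did not. The order of the means was the same after TGF-β1, with MT1M and MTF1 now overlapping and SLC30A1 and MT1M no longer so. MT1X came nearer to MT1E, at 326 ± 24.1 against 502 ± 56.1 TPM, and moved from ranks between 1100 and 1237 among all entries to ranks between 424 and 512.

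MTF1, the zinc sensor, is at chr1:37809570-37859614 on the minus strand. It had 38.6, 36.1 and 42.2 CPM in control and 37.8, 45.3 and 42.4 CPM after TGF-β1, and the groups overlapped. The log2 fold change was 0.10 ± 0.08, with a 95% interval from -0.08 to 0.28 (edgeR adjusted p = 0.346), and it was -0.01 with total counts only. The mRNA level of MTF1 is not a measure of its activity, which depends on zinc binding.

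SLC30A1, the exporter, is at chr1:211571568-211579161 on the minus strand. It had 69.2, 67.8 and 64.3 CPM in control and 68.2, 79.9 and 81 CPM after TGF-β1. Replicates 2 and 3 of TGF-β1 were above all controls, and replicate 1 lay among them. The log2 fold change was 0.19 ± 0.07, with a 95% interval from 0.03 to 0.35 (edgeR adjusted p = 0.0581). The interval is for this gene alone, and the call is after adjustment over all entries. SLC30A1 was called without TGF-β1 replicate 1, at 0.25 (edgeR adjusted p = 0.000837), and when all entries with a count were tested, at 0.19 (edgeR adjusted p = 0.0209), so its call depends on 1 library and on the filter. In every fit its rise stayed smaller than that of MT2A.

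The other zinc transporters moved in both directions. Of 9 further exporters of the SLC30A family, 5 passed the count filter, and SLC30A5, a transporter of the secretory pathway, was called. Its mean was 82.4 ± 2.37 CPM in control and 109.5 ± 3.33 CPM with TGF-β1, higher by 0.41 ± 0.05 on the log2 scale (edgeR adjusted p = 0.000105), and the libraries did not overlap. SLC30A4, SLC30A6, SLC30A7 and SLC30A9 had log2 fold changes from -0.54 to 0.47 and were not called.

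Of 14 importers of the SLC39A family, 10 passed the filter, with 3 called higher and 1 lower. SLC39A14, a plasma membrane transporter of zinc, iron and manganese, had 285, 267 and 275 CPM in control and 355, 408 and 421 CPM after TGF-β1, a log2 fold change of 0.52 ± 0.07 (edgeR adjusted p = 0.000122). SLC39A13, a transporter of the secretory pathway, rose by 0.35 ± 0.08 and SLC39A3 by 0.27 ± 0.09 on the log2 scale. SLC39A11 had 19.8, 20.4 and 19.4 CPM in control and 10.8, 11 and 11.1 CPM after TGF-β1. It was the one zinc transporter called lower, and its log2 fold change was -0.86 ± 0.07 (edgeR adjusted p = 2.6e-06). Over the exporters and importers together, 4 of 15 tested were called higher and 1 lower, beside 22.2% and 22.1% of all entries, with a median log2 fold change of 0.07, close to that of all entries. Without TGF-β1 replicate 1, 8 were called, and the share of all entries called in that fit is not given. SLC39A7 had nearly all of its reads on alternate contigs, where its entries went both ways. Of these, 1 was called higher, at 1.32 (edgeR adjusted p = 0.00556), and is not among the 4. Another had 318 reads over the control libraries together and 15 over the TGF-β1 libraries, but it was under the count filter. Too few libraries held enough of its reads for a test, so these sums are not read as a change. SLC39A4 stood at 0.55 on its primary chromosome and at -0.85 on a contig, neither called, so both genes are uncertain.

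**Figure D4:**
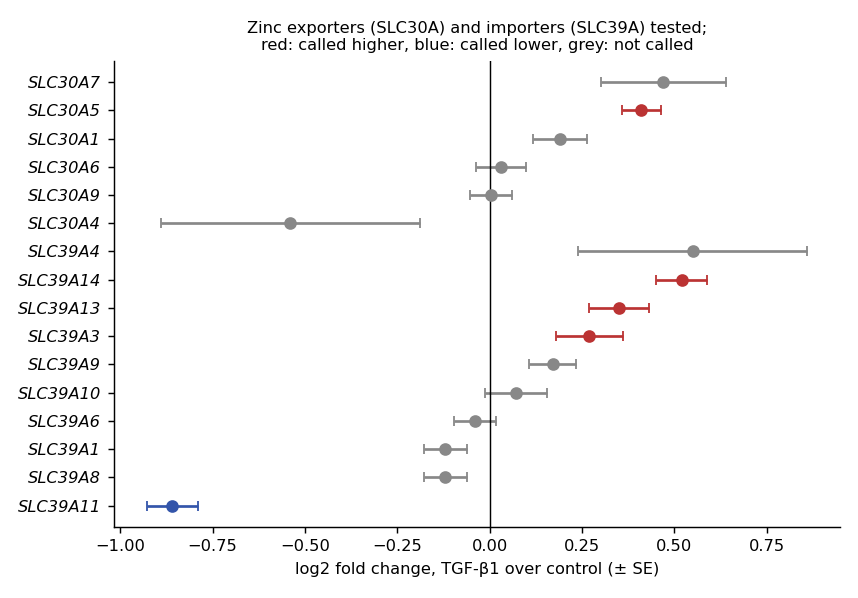
Log2 fold change of TGF-β1 over control, with SE as error bars, for SLC30A1 and the 15 other zinc transporters tested. SLC30A5, SLC39A14, SLC39A13 and SLC39A3 were called higher and SLC39A11 lower, and SLC30A1 at 0.19 was not called.

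Genes of copper, iron and heavy metal stress were read beside the metallothioneins. Of 18 listed, 16 were tested, with 5 called higher and 2 lower and a median log2 fold change of 0.08. The 7 called of 16 are close to the 44.3% called among all entries. HMOX1, which degrades heme and answers oxidative and heavy metal stress, rose by 0.52 ± 0.12. GCLM and GCLC, the subunits of the rate-limiting enzyme of glutathione synthesis, rose by 0.28 ± 0.07 and 0.24 ± 0.07. The copper pump ATP7A rose by 0.56 ± 0.12 and ACO1, an iron-regulated RNA-binding protein, by 0.21 ± 0.06. SLC11A2, an importer of ferrous iron, changed by -0.54 ± 0.05, and FTH1, the heavy chain of ferritin, by -0.26 ± 0.07. None of the 7 called reached 2-fold.

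Glucocorticoid response genes were listed because MT2A is a known glucocorticoid target. Of 7, a count that includes the receptor itself, 6 were tested. Of these, 3 were called higher and 1 lower, beside 22.2% and 22.1% of all entries. The receptor NR3C1 rose by 0.36 ± 0.08, DUSP1 by 0.56 ± 0.06 and PER1 by 0.49 ± 0.08, while FKBP5, also a target of the receptor, changed by -0.25 ± 0.05 on the log2 scale. The members of the list did not move one way, and any part of the receptor in the change of MT2A was not tested.

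The metallothionein genes lie in 1 cluster of 119 kb at 16q13, from MT4 to MT1X. MT2A and MT1X, the members that rose, are 73.9 kb apart by their starts. MT1E, MT1M, MT1A and MT1F lie between them and were not called. Within 250 kb of either end, 7 other named genes were tested, with 3 called higher and 1 lower, beside 22.2% and 22.1% of all entries. HERPUD1, a gene of the endoplasmic reticulum stress response, lies 323.6 kb from the start of MT2A and stood at 58 ± 4.63 CPM in control and 97.1 ± 2.87 CPM with TGF-β1, higher by 0.74 ± 0.07 on the log2 scale (edgeR adjusted p = 5.93e-06). OGFOD1 rose by 0.28 ± 0.05 and NUP93, a nuclear pore gene, by 0.24 ± 0.05, while BBS2 changed by -0.18 ± 0.06. NUDT21 and GNAO1 were not called, with values of 0.07 and 0.03. No other entry overlapped the span of any member.

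**Figure D5:**
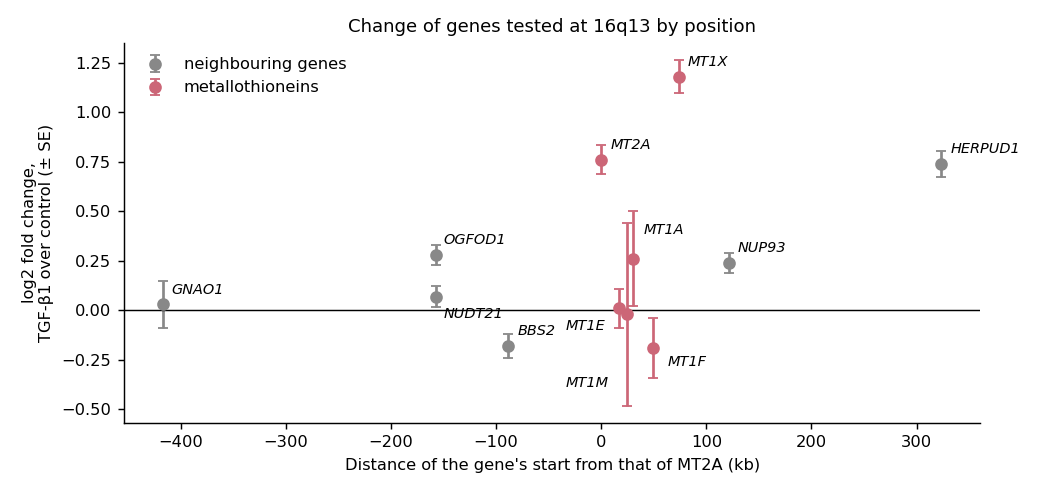
Log2 fold change of TGF-β1 over control, with SE as error bars, against the distance of each gene's start from that of MT2A in kb, for the 6 metallothioneins tested and 6 neighbouring genes at 16q13. MT2A and MT1X stand above the 4 metallothioneins between them, and HERPUD1 at 0.74 is the neighbour with the largest rise.

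The genes whose pattern over the 6 libraries was most like that of MT2A were DPH2, DVL1, MRTFA, HERPUD1 and HLX, with a Pearson r of log2 CPM of 0.998 each among 10715 genes of at least 5 CPM on average. As a description, 1149 genes had an r over 0.95, since any gene that separates the groups scores high. MT1X had an r of 0.994 with MT2A, whereas MT1E had 0.21 and MT1F had -0.358. In bulk RNA, a larger share of cells with a transcript and more of it per cell cannot be told apart.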

How the data were processed

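Libraries were made from poly(A) RNA with random priming. Per the labels, the submitters' processing notes name hg38, CASAVA, featureCounts 2.0.1 and DESeq2 1.16.1 with no role. The aligner and annotation release are not given in the sources used here, nor is the use of strand. The deposited tables held raw counts per gene and TPM values computed by the authors from those counts. In each, 7 broken records were rejoined. Loci without a name, with 0.396% to 0.464% of counts, were left out of the fit.

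Counts of 41497 named entries were filtered with filterByExpr (minimum count 10), scaled by TMM and compared between 3 control and 3 TGF-β1 libraries with the edgeR 4.0.16 quasi-likelihood F test (robust, two-sided), with Benjamini-Hochberg adjustment over 14860 entries. SE was the size of the log2 fold change over the square root of F. The summed metallothioneins were fitted as 1 row, with no p. The test was first checked on simulated data. Alternatives were DESeq2 1.42.0, limma-voom (limma 3.58.1), RLE factors, total counts only, other count filters, a replicate block, summed entries of a name, and leaving out each library. Promoters came from RefSeq and transcripts from GENCODE.

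All members were named, and other genes when called or, in the neighbourhood, when tested. A tested gene of the neighbourhood is counted but not reported here. Genes named by their list's range or marker role are additions. The likeness rule took the 5 genes of at least 5 CPM with the highest r to MT2A. Members and lists were chosen with earlier results of these data known.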

Additional observations from a re-analysis of the deposited data

How the results depend on the processing

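MT2A stayed between 0.65 and 0.82 and MT1X between 1.07 and 1.24 on the log2 scale over 14 alternatives, and both were called in each. The metallothionein sum stayed between 0.52 and 0.67 over 11. The median log2 fold change of all entries was 0.01 with TMM and -0.10 with total counts only, and that shift carried MT1E to -0.10 and MTF1 to -0.01. MT1E was -0.01 among entries with a mean of at least 50 counts and ranged from -0.07 to 0.10 with 1 library left out, and MT1M ranged from -0.32 to 0.32. The number of members called was 2 to 4 with 1 library left out, and that of zinc transporters 4 to 8. The highest of each was without TGF-β1 replicate 1, when MT1F and SLC30A1 joined MT2A and MT1X. Metal handling genes and 16q13 neighbours also had their highest counts in that fit, at 9 and 6. The share of all entries called there is not given, so the higher counts are not a result about these lists. The cause of the higher counts was not tested.

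Same-numbered libraries of the groups deviated together with r = 0.111, -0.0117 and 0.0762, and not every library correlated best with its own number, so the numbers were not taken to pair libraries. With a replicate block, MT2A was at 0.76, MT1X at 1.18 and the sum at 0.62, 2 members and 6 zinc transporters were called, and no member's call changed. MT1A had no value among entries with a mean of at least 50 counts. Depth limits MT1G, with 3 reads in all, and the spread between libraries limits MT1M, with an SE of 0.46.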

Other observations

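A locus without a gene name was listed 322 bases past the end of MT2A on the opposite strand, at chr16:56609819-56614664 on GRCh38. Its reads numbered 67, 74 and 78 in control libraries and 49, 61 and 55 in TGF-β1 libraries. In CPM it was at 3.11 ± 0.191 in control and 2.34 ± 0.403 after TGF-β1 (n = 3), and every TGF-β1 library was below every control library. Among named entries tested, 27.9% had every TGF-β1 library above every control library, and the share for below is not given. The use of strand in the counting is not given, so the strand of these reads is not known. The exact permutation test (two-sided) gave p = 0.1, the smallest possible here.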
